A study of Bos taurus with 6 samples.

Results

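Histone-modifying enzymes add or remove methyl and acetyl groups on the histone proteins that package DNA, and their mRNA is described here in bovine oocytes after in vitro maturation to metaphase II, where the egg pauses until fertilization. Genes were chosen by a rule on their names: every symbol that begins with KDM, KMT, SETD, PRMT, HDAC, KAT or SIRT followed by a digit, and the Polycomb genes EZH1, EZH2, EED and SUZ12. The rule was drawn up with earlier results of these data known. The rule found 71 of the 17325 genes in the files, of which 29 are methyltransferases or Polycomb subunits, 16 are demethylases, 8 are acetyltransferases and 18 are deacetylases. The study compared 3 libraries labelled negative control (NC) with 3 labelled knockdown of MTFP1 (siMTFP1), an inner mitochondrial membrane protein linked to fission, and all 6 were made from messenger RNA of oocytes. The knockdown reagent, the donors, their age and the number of oocytes per library are not stated in the sources used here. The p-values below therefore measure only how far these libraries spread, and that spread may be technical. Levels are given as FPKM, read fragments normalised for transcript length and library total, which allows genes of different length to be set side by side.

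Acetylation of lysines loosens chromatin and is written by acetyltransferases and removed by histone deacetylases and sirtuins. Methylation of lysines and arginines marks active or silent chromatin according to the residue: H3K4 and H3K36 methylation accompany active genes, whereas H3K9, H3K27 and H4K20 methylation accompany silent or compacted chromatin. A fully grown oocyte has stopped transcription, so its mRNA is a store on which the egg and early embryo draw, and histones are broadly deacetylated during meiotic maturation in many mammals.

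The libraries carried the oocyte's own transcripts. All 12 oocyte markers lay above 0 in all 6 libraries, with a summed level of 27050 to 29043 FPKM. The 22 markers of cumulus and granulosa cells, the somatic cells around the oocyte, summed to 184 to 385 FPKM in 5 libraries and to 1203 FPKM in siMTFP1 2, where TIMP1 alone gave 955 FPKM. Of the defining somatic markers, FSHR was listed at 0 in 5 of 6 libraries, with 0.02 FPKM in NC 3, and AMH was listed at 0 in 4 of 6. Other markers on the list were present in every library, among them STAR at 54.5 to 72.6 FPKM, HAS2 at 33.8 to 49.9 FPKM, KRT8 at 12.1 to 21.0 FPKM and SERPINE2 at 13.3 to 43.1 FPKM. Of the 14 cumulus markers tested below, 11 had a higher mean in siMTFP1, with a median log2 difference of 0.24. SERPINE2 (0.85) and INHA (1.46) had an unadjusted but not an adjusted limma p under 0.05, and SERPINE2 was separate between groups. Of the 12 oocyte markers 9 had a higher mean in siMTFP1 as well, with a median log2 difference of 0.09. ZP2 (-0.54), lower and separate between groups, and DAZL (0.91), which overlapped, also had an unadjusted but not an adjusted limma p under 0.05. MTFP1 itself was 0.53, 0.55 and 0.05 FPKM in NC 1, 2 and 3 and 0.43, 0.58 and 1.15 FPKM in siMTFP1 1, 2 and 3, and so was no lower in the libraries labelled knockdown (exact two-sided permutation test, p = 0.4, where 0.1 is the smallest p that 3 against 3 allows). Every direction below is therefore that of the labels, and "the libraries labelled siMTFP1" is meant wherever siMTFP1 is written. Sequencing depth is unknown because FPKM keeps no read total. In bulk RNA fewer cells of a type and less RNA per cell cannot be told apart.

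The oocyte's store of these mRNAs was uneven, with a few enzymes far above the rest. Of the 71 genes, 17 had a mean of at least 10 FPKM over the 6 libraries, 30 lay between 1 and 10, and 24 lay under 1. A mean of at least 1 FPKM was reached by 66.2% of them and by 56.2% of all genes. The 71 together made up 0.102% to 0.141% of a library's FPKM sum. HDAC3, the catalytic deacetylase of the nuclear receptor corepressor complexes, was highest at 230 FPKM, followed by the arginine methyltransferase PRMT1 at 189 FPKM, the H4K20 methyltransferase KMT5B at 101 FPKM and the mitochondrial deacetylase SIRT3 at 76.1 FPKM. In each role the 3 highest genes held most of the summed level: 70.0% in the methyl writers (PRMT1, KMT5B, KMT5A), 73.0% in the demethylases (KDM1A, KDM1B, KDM4A), 85.1% in the acetyltransferases (KAT2A, KAT6B, KAT7) and 84.5% in the deacetylases (HDAC3, SIRT3, HDAC1). The order was HDAC3 above PRMT1 above KMT5B above SIRT3 in every library. At the other end, HDAC4, PRMT8 and KDM8 were listed at 0 in at least 1 library and averaged 0.0133, 0.0400 and 0.0467 FPKM.

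**Figure D1:**
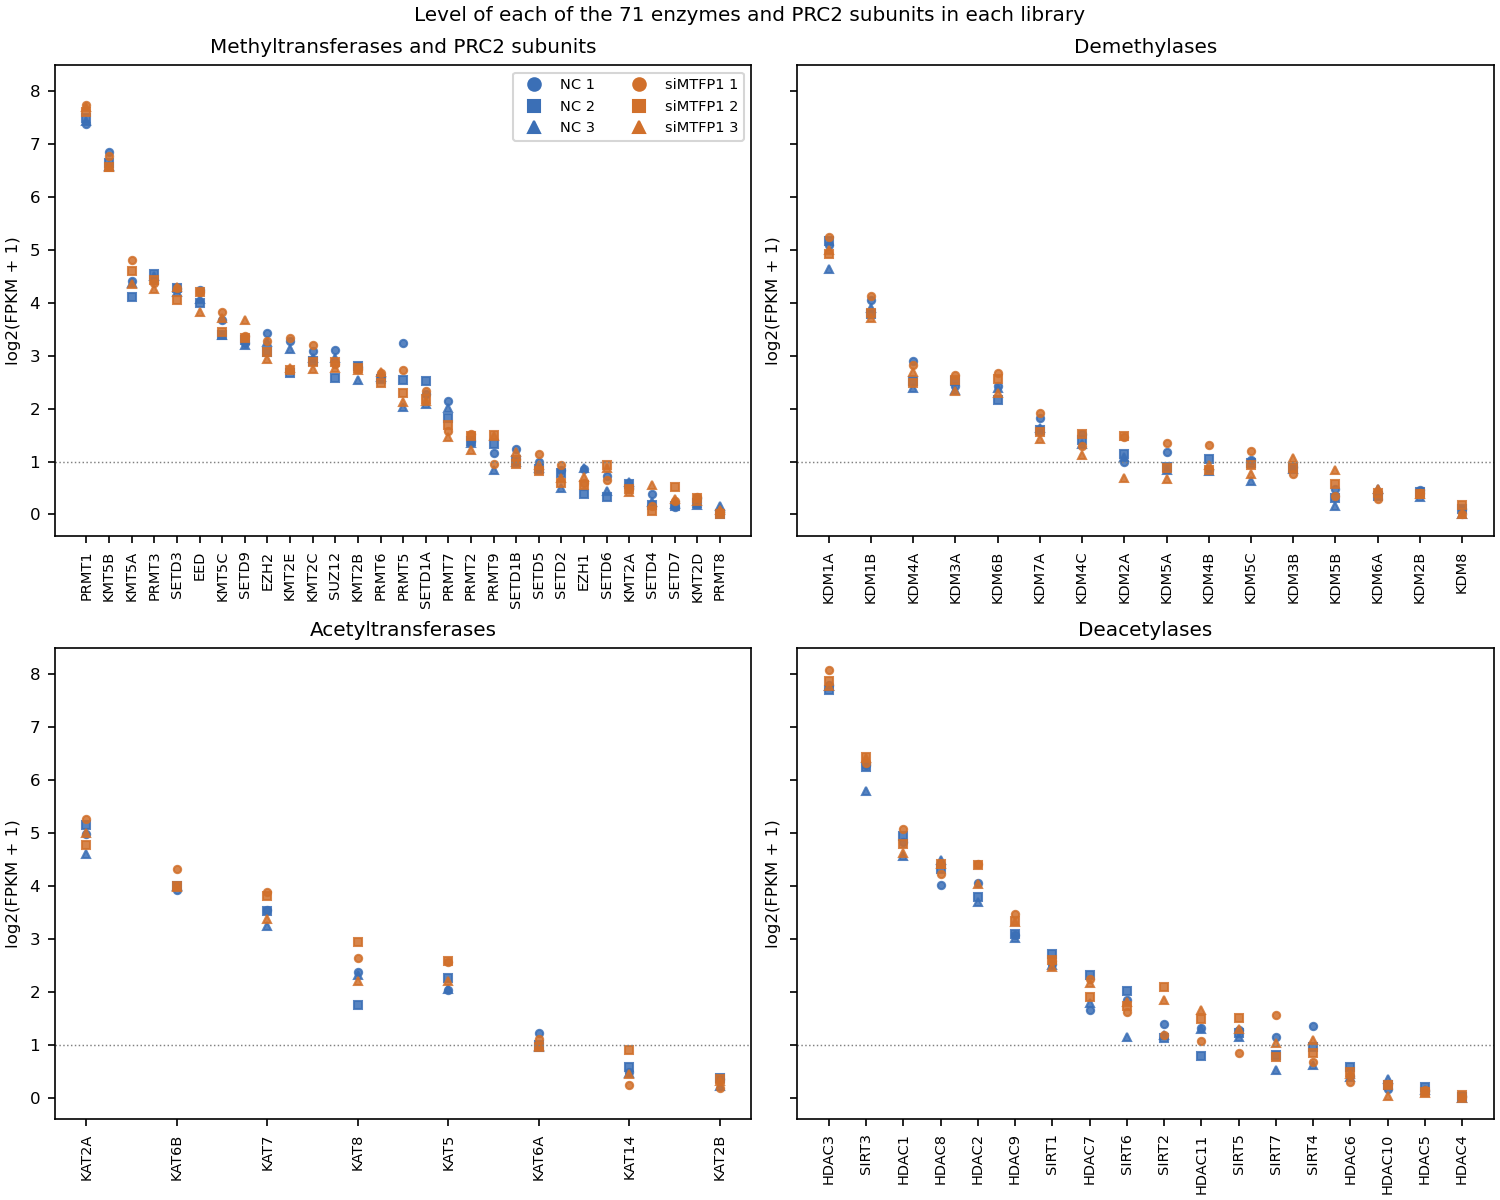
Level of each of the 71 genes in each of the 6 libraries, as log2(FPKM + 1) on the vertical axis, by role and in order of mean level. Blue symbols are NC and orange symbols siMTFP1, the symbol's shape gives the replicate, and the dotted line marks 1 FPKM; HDAC3 at 230, PRMT1 at 189, KMT5B at 101 and SIRT3 at 76.1 FPKM stand above the other genes, and the groups largely overlie each other.

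None of the 71 genes passed the comparison between groups. The groups were compared with limma on log2(FPKM + 1) over the 9730 genes with a mean of at least 1 FPKM, with Benjamini-Hochberg adjustment over all of them; 47 of the 71 were tested and 24 lay below that filter. At an adjusted p under 0.05, 0 of the 47 were called, as were 0 (0%) of all tested genes, and the smallest adjusted p among the 47 was 0.750. At an unadjusted p under 0.05, 1 of the 47 was higher in siMTFP1 (HDAC2) against 3.86% of all tested genes, and 1 was lower (PRMT7) against 2.66%. The 3 libraries of one group lay wholly above the other in 4 of the 47 in the higher direction (PRMT1, SIRT3, HDAC9 and SETD9), against 5.97% of all tested genes, and in 2 in the lower direction (PRMT3 and PRMT7), against 5.05%. Together these 6 are 12.8% of the 47, near the 11% of all tested genes. No member reached an absolute log2 difference of 0.5, a size reached by 6.71% of all tested genes. That count depends on the pseudocount: with 0.1 in place of 1, 4 members reached it (SIRT2, PRMT7, SIRT7 and KAT8), against 10.8% of all tested genes. With array weights 2 did (KAT8 and SIRT2), against 8.71% of all tested genes. With single libraries left out 0 to 3 did, against 5.91% to 9.34%. The log2 differences ran from -0.42 to 0.48, with a median absolute value of 0.11 beside 0.14 over all tested genes, and the median standard error (SE) was 0.17 beside 0.18.

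**Figure D2:**
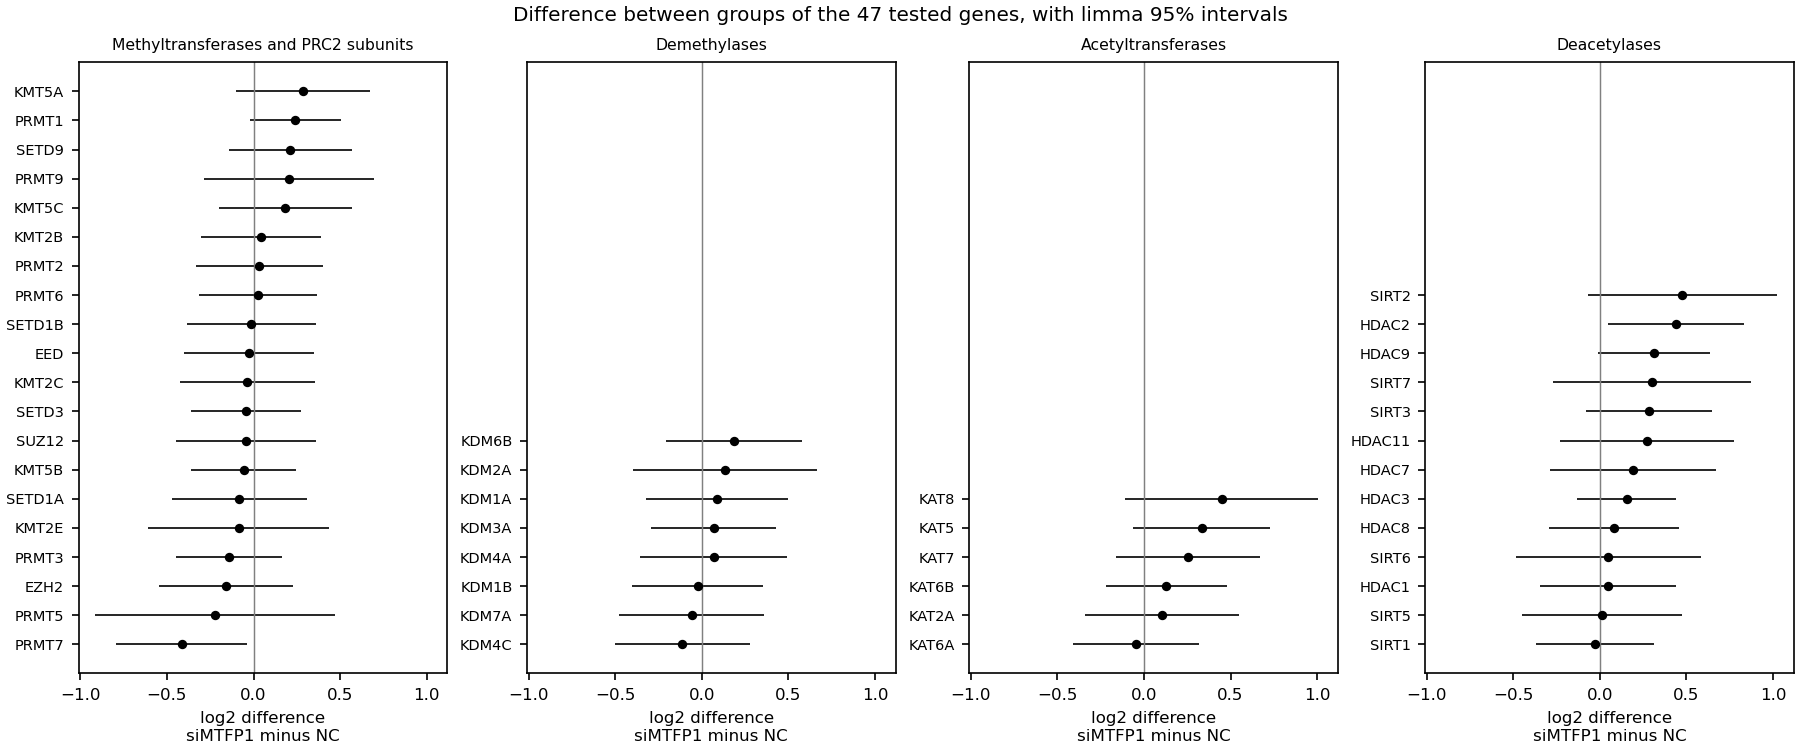
Log2 difference on the log2(FPKM + 1) scale, siMTFP1 minus NC, of the 47 tested genes by role, with points for the limma estimate and bars for its 95% interval. The intervals of HDAC2 and PRMT7 alone leave out 0 before adjustment for the number of genes, and neither passes after it.

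The mean log2 level was higher in siMTFP1 for 30 of the 47 and lower for 17, where 54.2% of all tested genes were higher. The split differed by role. It was 8 higher and 12 lower in the methyl writers, 5 and 3 in the demethylases, 5 and 1 in the acetyltransferases, and 12 and 1 in the deacetylases. The median log2 differences were -0.03, 0.07, 0.19 and 0.19 in that order, beside 0.02 over all tested genes. These counts moved with single libraries, as did the share of all tested genes that were higher, given in brackets. Without NC 3, 24 of 50 tested members were higher (48.1%) and the deacetylases stood at 9 of 14. Without siMTFP1 1 the count was 23 of 46 (51.1%). Without NC 1 it was 37 of 45 (59.7%), with the methyl writers at 15 of 20. Quantile normalization gave 25 of 47 higher (47.0%), with 5 of 20 methyl writers and 10 of 13 deacetylases. Array weights gave 3 of 8 demethylases higher in place of 5 (52.5%). The split also depends on the filter. With no filter 13 of all 18 deacetylases were higher and 5 lower, with a median log2 difference of 0.065. In that setting 42 of the 71 members and 55.1% of all genes were higher. Of the cumulus markers 11 of 14 were higher as well, as were 9 of 12 oocyte markers, and the part of either list in these counts was not tested. The members of a role are not replicates, and the counts describe these libraries.

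Among the arginine methyltransferases PRMT1, which makes most asymmetric dimethylarginine in mammalian cells, was 166, 179 and 173 FPKM in NC 1, 2 and 3 and 214, 193 and 206 FPKM in siMTFP1 1, 2 and 3. All 3 siMTFP1 libraries lay above all 3 NC libraries. The group means were 173 ± 6.86 and 204 ± 10.4 FPKM (SD, n = 3). The log2 difference, 0.24 (SE 0.12), did not pass (limma adjusted p = 0.776). PRMT7, which makes monomethylarginine, went the other way: it was 3.45, 2.52 and 3.04 FPKM in NC and 1.98, 2.23 and 1.77 FPKM in siMTFP1. Its highest siMTFP1 library lay below its lowest NC library, the means were 3.00 ± 0.466 and 1.99 ± 0.230 FPKM, and the log2 difference was -0.42 (SE 0.17, unadjusted p = 0.0346 and adjusted p = 0.750 by limma). The unadjusted p of PRMT7 was above 0.05 without NC 1 (0.112), NC 3 (0.0702), siMTFP1 1 (0.0676) or siMTFP1 3 (0.102). PRMT3, a cytosolic enzyme that methylates a ribosomal protein, was 20.7, 22.5 and 21.8 FPKM in NC and 19.8, 20.5 and 18.3 FPKM in siMTFP1, so the groups were separate by a narrow margin with a log2 difference of -0.14 (SE 0.13). PRMT5, the main enzyme of symmetric dimethylarginine, had the largest SD within groups of the tested members on the log2(FPKM + 1) scale (0.48), at 8.48, 4.84 and 3.10 FPKM in NC and 5.65, 3.91 and 3.39 FPKM in siMTFP1. All its siMTFP1 libraries lay within the wider NC range. By the ratio of highest to lowest library, 2.7355 for PRMT5, SIRT7 (4.56), KDM2A and HDAC11 (2.93 each), KAT8 (2.83) and, barely, SIRT2 (2.7373) varied more. PRMT6, PRMT2 and PRMT9 averaged 5.09, 1.63 and 1.36 FPKM with overlapping groups, and PRMT8, known from brain, was listed at 0 in NC 2 and siMTFP1 2.

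**Figure D3:**
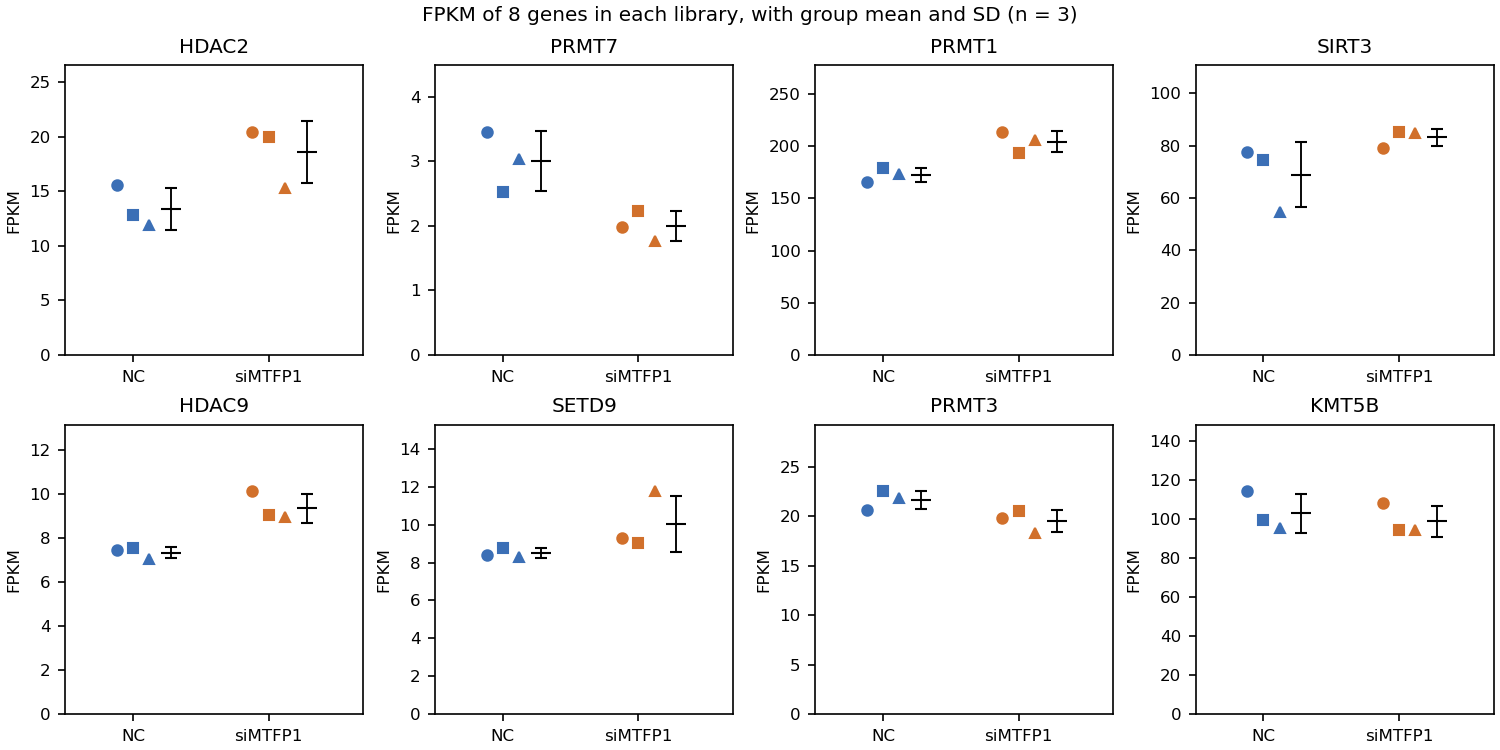
FPKM of 8 genes in each library (vertical axes from 0), NC in blue and siMTFP1 in orange, circles, squares and triangles for replicates 1, 2 and 3, and black bars for the mean and SD of 3 libraries. PRMT1, SIRT3, HDAC9 and SETD9 are separate in the higher direction and PRMT7 and PRMT3 in the lower one, HDAC2 overlaps at 15.6 FPKM in NC 1 and 15.3 FPKM in siMTFP1 3, and KMT5B is shown as an abundant gene with overlapping groups; PRMT3, SETD9 and KMT5B were picked for the plot after their values were seen.

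The H4K20 methyltransferases KMT5B and KMT5A were the highest lysine methyltransferases under the naming rule, and KMT5C lay below SETD3 and EED. KMT5B, which makes di- and trimethylated H4K20 with KMT5C, was 114, 99.4 and 95.5 FPKM in NC and 108, 94.5 and 94.3 FPKM in siMTFP1. The groups overlapped throughout, with a log2 difference of -0.06 (95% interval -0.36 to 0.25). KMT5A, the enzyme of monomethylated H4K20 in dividing cells, was 20.4, 16.3 and 19.8 FPKM in NC and 27.1, 23.3 and 19.4 FPKM in siMTFP1, with a log2 difference of 0.29 (SE 0.17) and a limma adjusted p of 0.842. Here siMTFP1 3 lay among the NC libraries and the other siMTFP1 libraries above them. KMT5C averaged 11.0 FPKM, with a log2 difference of 0.18. The ratio of KMT5B to KMT5A was 5.60, 6.10 and 4.83 in NC and 4.00, 4.06 and 4.85 in siMTFP1, with a narrow overlap.

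The core of Polycomb repressive complex 2, which methylates H3K27, was present with EZH2 as its main catalytic subunit. EZH2 was 9.81, 7.42 and 8.62 FPKM in NC and 8.74, 7.45 and 6.66 FPKM in siMTFP1, with a log2 difference of -0.16 (SE 0.17) and a limma adjusted p of 0.914. Its homologue EZH1 was 0.82, 0.31 and 0.85 FPKM in NC and 0.52, 0.47 and 0.63 FPKM in siMTFP1, below the filter for testing. EED, the subunit that reads trimethylated H3K27, was 17.9, 15.0 and 15.8 FPKM in NC and 17.6, 17.4 and 13.1 FPKM in siMTFP1. SUZ12, the scaffold subunit, was 7.63, 4.97 and 6.76 FPKM in NC and 6.18, 6.40 and 5.84 FPKM in siMTFP1. EED and SUZ12 overlapped between groups, with log2 differences of -0.02 and -0.05. EZH2 exceeded EZH1 in all 6 libraries, by a ratio of 10.1 to 23.9, so the H3K27 methyltransferase mRNA of these oocytes was mostly EZH2.

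Of the H3K4 methyltransferases, KMT2E, KMT2C and KMT2B stood highest, at 7.06, 6.86 and 5.66 FPKM. KMT2E belongs to this family by sequence, though its own activity on histones is in doubt. KMT2B, which places H3K4 methylation in growing mouse oocytes, was 5.90, 6.00 and 4.82 FPKM in NC and 5.74, 5.82 and 5.67 FPKM in siMTFP1, a log2 difference of 0.04 (95% interval -0.30 to 0.39). KMT2D, another enzyme of the family, was 0.24, 0.16 and 0.13 FPKM in NC and 0.26, 0.24 and 0.19 FPKM in siMTFP1. KMT2A was 0.42, 0.49 and 0.53 FPKM in NC and 0.39, 0.40 and 0.34 FPKM in siMTFP1, and SETD7 was 0.10, 0.12 and 0.15 FPKM in NC and 0.20, 0.44 and 0.22 FPKM in siMTFP1. These 2 were the only members of the 71 below the filter whose groups did not overlap, and the share of all genes below it was not computed. With no filter SETD7 had an unadjusted but not an adjusted limma p under 0.05, as did 3.66% of all genes in the higher direction. SETD1A and SETD1B, the catalytic subunits of the COMPASS complexes that make most H3K4 trimethylation, averaged 3.81 and 1.11 FPKM, with log2 differences of -0.08 and -0.01. SETD2, the enzyme of H3K36 trimethylation, was low at 0.78, 0.72 and 0.42 FPKM in NC and 0.91, 0.51 and 0.61 FPKM in siMTFP1.

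Some SETD genes act mainly outside histones. SETD3, which methylates a histidine of actin, was 18.2, 18.5 and 17.5 FPKM in NC and 18.3, 15.7 and 18.6 FPKM in siMTFP1. It was among the steadiest members, with a highest-to-lowest ratio of 1.18 over the 6 libraries. SETD9, a less studied SET-domain gene, was 8.40, 8.79 and 8.27 FPKM in NC and 9.32, 9.04 and 11.8 FPKM in siMTFP1. Its groups did not overlap, but siMTFP1 3 held most of the distance, and the log2 difference of 0.21 (SE 0.16) did not pass (limma adjusted p = 0.884). SETD5, SETD6 and SETD4 averaged 0.917, 0.598 and 0.208 FPKM.

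The demethylases were led by the flavin-dependent enzymes KDM1A and KDM1B, which remove mono- and dimethylation from H3K4. KDM1A was 33.1, 35.1 and 24.0 FPKM in NC and 37.0, 29.3 and 30.9 FPKM in siMTFP1, and KDM1B, needed for the setting of maternal imprints in mouse oocytes, was 15.6, 12.8 and 13.9 FPKM in NC and 16.5, 13.0 and 12.2 FPKM in siMTFP1. Both overlapped between groups. The log2 differences were 0.09 (95% interval -0.32 to 0.50) and -0.02 (95% interval -0.40 to 0.35). The JmjC enzymes of H3K4, KDM5A, KDM5C and KDM5B, averaged only 0.985, 0.912 and 0.387 FPKM, all below the filter.

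Among the JmjC demethylases of H3K9 and H3K36, KDM4A was 6.43, 4.75 and 4.26 FPKM in NC and 6.11, 4.63 and 5.46 FPKM in siMTFP1. The H3K9 enzyme KDM3A averaged 4.57 FPKM and KDM4C 1.60 FPKM, with log2 differences of 0.07 and -0.11. KDM2A and KDM2B, which act on H3K36, averaged 1.25 and 0.317 FPKM. For H3K27, KDM6B was 4.41, 3.47 and 4.23 FPKM in NC and 5.40, 4.94 and 3.91 FPKM in siMTFP1, with a log2 difference of 0.19 (SE 0.17) and a limma adjusted p of 0.900. KDM6A, the X-linked enzyme of the same mark, was 0.32, 0.27 and 0.40 FPKM in NC and 0.23, 0.32 and 0.40 FPKM in siMTFP1. KDM6A stood at 0.0426 to 0.102 of the KDM6B level over the 6 libraries, so KDM6B was the main H3K27 demethylase mRNA in each of them. KDM7A averaged 2.18 FPKM, with a log2 difference of -0.06. In the demethylases 0 of 8 tested genes reached an unadjusted p under 0.05 and 0 had groups without overlap, beside 6.53% and 11% of all tested genes, and 8 genes are too few to read a difference from those shares.

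KAT2A, the GCN5 acetyltransferase of the SAGA and ATAC complexes, was the highest of the genes named KAT, at 30.5, 34.7 and 23.2 FPKM in NC and 37.7, 26.4 and 30.9 FPKM in siMTFP1. Its paralogue KAT2B averaged 0.233 FPKM. The MYST-family enzymes followed. KAT6B was 14.1, 15.0 and 15.0 FPKM in NC and 19.1, 15.0 and 14.7 FPKM in siMTFP1, where siMTFP1 1 stood apart from the other 5 libraries. KAT7, an H3K14 acetyltransferase tied to replication origins, was 10.6, 10.5 and 8.49 FPKM in NC and 13.7, 13.1 and 9.43 FPKM in siMTFP1. KAT8, which acetylates H4K16, was 4.17, 2.36 and 3.96 FPKM in NC and 5.20, 6.68 and 3.61 FPKM in siMTFP1. KAT5, the TIP60 enzyme of the DNA damage response, was 3.10, 3.76 and 3.15 FPKM in NC and 4.94, 4.97 and 3.58 FPKM in siMTFP1.

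In KAT7, KAT8 and KAT5 the libraries siMTFP1 1 and siMTFP1 2 lay above all NC libraries and siMTFP1 3 lay among them. The log2 differences were 0.26 (SE 0.18), 0.45 (SE 0.24) and 0.33 (SE 0.17), with limma adjusted p of 0.881, 0.820 and 0.810. Without siMTFP1 3 the log2 difference was 0.64 for KAT8 and 0.46 for KAT5, and both then had an unadjusted p under 0.05, though not an adjusted one. Without NC 2 the log2 difference of KAT8 was 0.25, and without siMTFP1 2 it was 0.28. The cumulus marker sum was 225 FPKM in siMTFP1 1 and 1203 FPKM in siMTFP1 2, and the part of these markers in the values was not tested. KAT6A, with a log2 difference of -0.05, was the only tested gene named KAT with a lower mean in siMTFP1.

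Class I deacetylases were the main nuclear deacetylase mRNAs. HDAC3 was 222, 209 and 220 FPKM in NC and 271, 235 and 220 FPKM in siMTFP1, with a log2 difference of 0.15 (SE 0.12) and a limma adjusted p of 0.892. HDAC1 was 27.3, 30.0 and 22.8 FPKM in NC and 32.6, 26.8 and 23.5 FPKM in siMTFP1, a log2 difference of 0.04 (95% interval -0.35 to 0.44). HDAC2, the paralogue that shares the SIN3, NuRD and CoREST complexes with HDAC1, was 15.6, 12.8 and 11.9 FPKM in NC and 20.4, 19.99 and 15.3 FPKM in siMTFP1. The groups of HDAC2 overlapped only where siMTFP1 3 lay just under NC 1. Its means were 13.4 ± 1.92 and 18.6 ± 2.83 FPKM (SD, n = 3), with a log2 difference of 0.44 (SE 0.17, unadjusted p = 0.0330 and adjusted p = 0.750 by limma). Its unadjusted p was above 0.05 without NC 2 (0.0810), NC 3 (0.0992), siMTFP1 1 (0.0961) or siMTFP1 2 (0.107). HDAC8, the remaining class I enzyme, averaged 19.0 FPKM and overlapped between groups.

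Among the other zinc-dependent deacetylases HDAC9, a class IIa enzyme, was 7.45, 7.56 and 7.05 FPKM in NC and 10.1, 9.05 and 8.95 FPKM in siMTFP1. The NC libraries lay close together and all siMTFP1 libraries lay above them, with a log2 difference of 0.31 (SE 0.14) that did not pass (limma adjusted p = 0.766). HDAC7 averaged 3.09 FPKM, and HDAC4 and HDAC5 of the same class averaged 0.0133 and 0.0983 FPKM. HDAC6 and HDAC10, the class IIb enzymes, averaged 0.353 and 0.162 FPKM, so mRNA of the cytosolic tubulin deacetylase HDAC6 was near 0. HDAC11 averaged 1.45 FPKM.

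SIRT3, the main deacetylase of the mitochondrial matrix, held most of the sirtuin mRNA. It was 77.6, 74.6 and 54.7 FPKM in NC and 79.2, 85.2 and 85.1 FPKM in siMTFP1. The groups were separate by a narrow margin, and NC 3 stood below the other 5 libraries. The group means were 69.0 ± 12.4 and 83.2 ± 3.42 FPKM (SD, n = 3). The log2 difference was 0.28 (SE 0.16) with a limma adjusted p of 0.829, and it was 0.13 without NC 3. The other mitochondrial sirtuins SIRT5 and SIRT4 averaged 1.34 and 0.927 FPKM. SIRT1, a nuclear deacetylase that acts on p53, was 4.79, 5.52 and 4.68 FPKM in NC and 5.00, 5.09 and 4.53 FPKM in siMTFP1, a log2 difference of -0.03 (95% interval -0.37 to 0.31). SIRT2, mainly cytosolic, was 1.61, 1.18 and 1.26 FPKM in NC and 1.28, 3.23 and 2.59 FPKM in siMTFP1. SIRT2 had the largest log2 difference of the 47 genes at 0.48 (SE 0.24, limma adjusted p = 0.797), and siMTFP1 1 lay among its NC libraries. The value was 0.73 without siMTFP1 1, where SIRT2 alone of the members had an unadjusted limma p under 0.05 (0.00561, adjusted 0.398), and 0.29 without siMTFP1 2. With a pseudocount of 5 it was 0.21, below the 0.35 of HDAC2, and with 0.1 it was 0.68.

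Writers were set against erasers by summing FPKM within each role in each library. Methyl writers summed to 446, 424 and 417 FPKM in NC 1, 2 and 3 and to 490, 438 and 447 FPKM in siMTFP1 1, 2 and 3. Demethylases summed to 74.4, 70.4 and 59.0 FPKM in NC and to 82.1, 67.0 and 64.7 FPKM in siMTFP1. Methyl writer mRNA thus exceeded demethylase mRNA in every library, by a ratio of 6.00, 6.02 and 7.07 in NC and 5.97, 6.53 and 6.90 in siMTFP1. The difference in the mean log2 ratio was 0.03, inside the SD of 0.136 in NC and 0.105 in siMTFP1. That writers exceeded erasers depends on the rule. The writer sum holds arginine enzymes, with PRMT1 at 42.5% of it, and the Polycomb subunits EED and SUZ12, whereas the demethylases are lysine enzymes. For H3K4 the erasers set out below exceeded the writers in every library, with a ratio of 0.349 to 0.419.

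For acetylation the genes under the naming rule gave more eraser than writer mRNA, but that order also depends on the rule, which leaves out acetyltransferases not named KAT. Acetyltransferases summed to 64.4, 68.1 and 55.3 FPKM in NC and to 82.1, 68.2 and 63.8 FPKM in siMTFP1. Deacetylases summed to 382, 371 and 352 FPKM in NC and to 449, 416 and 393 FPKM in siMTFP1. The ratio of acetyltransferase to deacetylase mRNA was 0.169, 0.183 and 0.157 in NC and 0.183, 0.164 and 0.162 in siMTFP1, a difference in the mean log2 ratio of 0.00097, with an SD of 0.11 and 0.096. The deacetylase sum did not overlap between groups, with a mean 1.14 times as high in siMTFP1, and it stood apart also after median-ratio scaling (1.12 times). Without HDAC3 and SIRT3 the sum (1.14 times) was separate only by a very narrow margin, at 87.57 FPKM in NC 2 and 87.59 FPKM in siMTFP1 3. With FPKM rescaled to equal library sums the full deacetylase sum overlapped, at 390 FPKM in NC 1 and 370 FPKM in siMTFP1 3. The sum of the class I deacetylases alone overlapped without rescaling, by a narrow margin. It was 279.73 FPKM in NC 1 and 279.62 FPKM in siMTFP1 3, with a mean 1.12 times as high in siMTFP1. The 14 other acetyltransferases and related proteins outside the rule summed to 525 to 636 FPKM, above the deacetylases in every library. Most of that came from ESCO2, a cohesin acetyltransferase (261 FPKM), and the transcription factor ATF2 (222 FPKM), and without both the sum was 96.0 to 126.5 FPKM, led by HAT1, which acetylates newly made histone H4, at 38.3 FPKM against 30.6 FPKM for KAT2A. A sum over chosen genes was given no test.

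Ratios were also taken within 8 sets of enzymes that share a mark, a family or a complex, and in 2 of the 8 the groups did not overlap. EZH1 and EZH2 together over KDM6A and KDM6B, the writers and erasers of H3K27 methylation, gave 2.25, 2.07 and 2.05 in NC and 1.64, 1.51 and 1.69 in siMTFP1. All siMTFP1 ratios lay below all NC ratios, and the difference in the mean log2 ratio was -0.39, made up of a lower EZH2 and a higher KDM6B mean, neither of which passed by itself. HDAC2 over HDAC1 gave 0.571, 0.427 and 0.523 in NC and 0.628, 0.747 and 0.652 in siMTFP1, a difference in the mean log2 ratio of 0.42. Multiplying a library by 1 factor leaves such a ratio as it is. The H3K4 ratio, KMT2A to KMT2D with SETD1A and SETD1B over KDM1A, KDM1B and KDM5A to KDM5C, was 0.376, 0.379 and 0.419 in NC and 0.349, 0.389 and 0.368 in siMTFP1. SETD2 over KDM2A and KDM2B was 0.307 to 0.565 in NC and 0.244 to 0.670 in siMTFP1, a wide spread from low levels. KDM1B over KDM1A was 0.363 to 0.581 in NC and 0.394 to 0.446 in siMTFP1. These ratios rest on genes seen together and were not tested, and single genes were separate between groups in 11% of all tested cases.

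**Figure D4:**
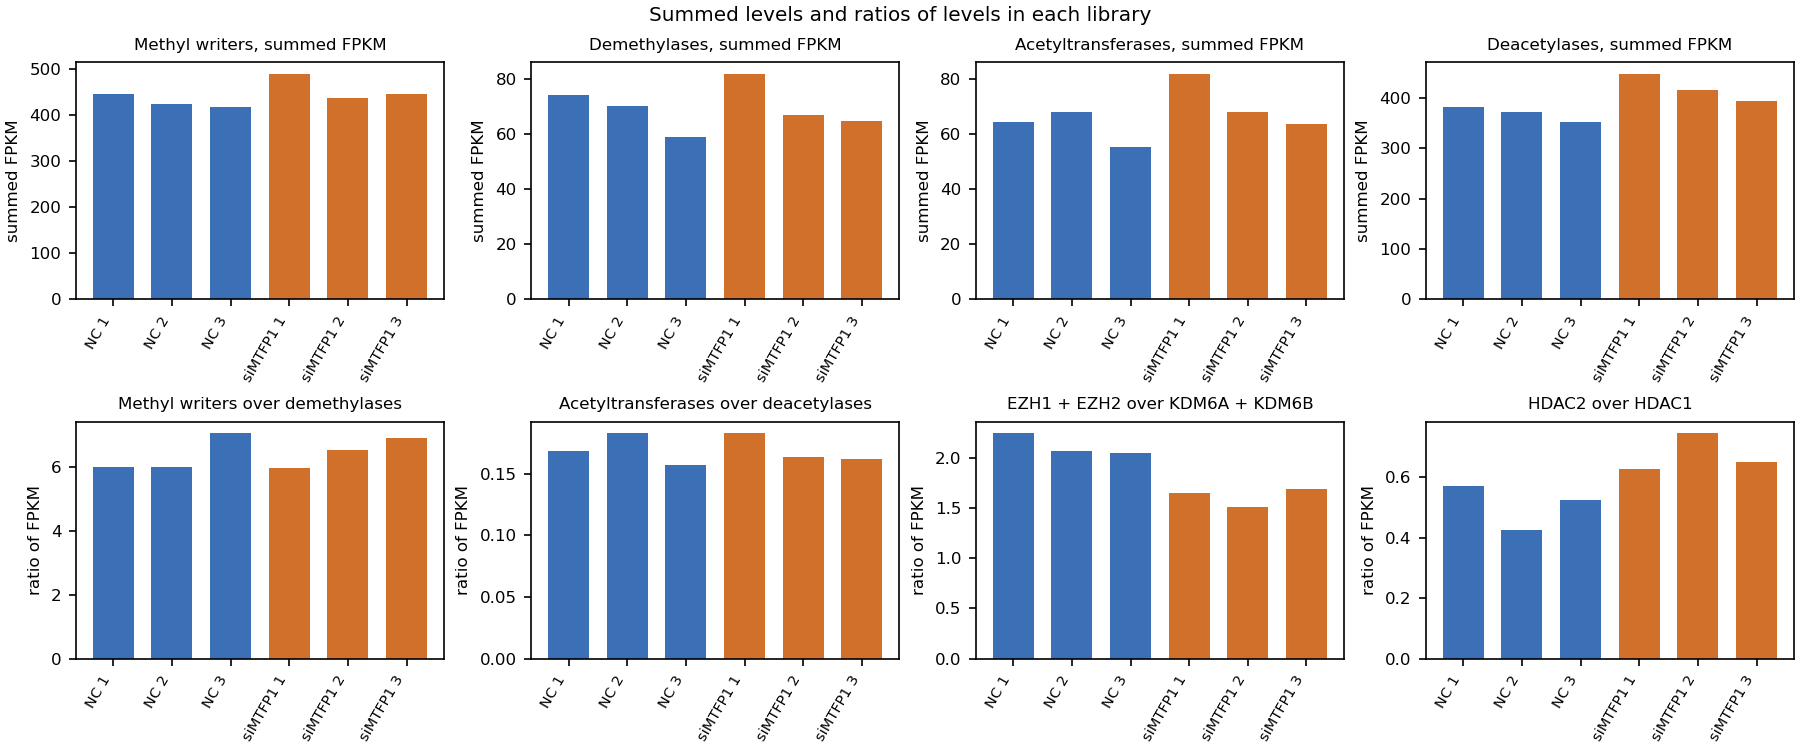
Summed FPKM of the 4 roles (upper row) and 4 ratios of summed FPKM (lower row) in each library, all axes from 0, NC in blue and siMTFP1 in orange. The deacetylase sum is 352 to 382 FPKM in NC and 393 to 449 FPKM in siMTFP1, the ratio of H3K27 writers to erasers is 2.05 to 2.25 and 1.51 to 1.69, and the overall ratios of writers to erasers overlap between groups.

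Single libraries stood out across these genes. Library siMTFP1 1 held the highest value of 19 of the 47 tested members, 40.4%, where it was highest in 21.9% of all tested genes. NC 3 held the lowest value of 17, 36.2%, against 28.8% of all tested genes, and the highest of only 1. Library siMTFP1 3 held the lowest value of 13, 27.7%, against 17.6%. The part of these libraries in the counts by role was not tested beyond leaving each out. The FPKM sum was lowest in siMTFP1 1, at 784366, and highest in siMTFP1 3, at 892790, and the summed level of the 71 genes was 1103 and 968 FPKM in them, against 883 to 967 FPKM in NC.

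Enzymes and partners outside the naming rule were read from lists drawn up by function, and 0 of them passed over all genes (limma, Benjamini-Hochberg). Of 20 other methyltransferases 13 were tested, 4 with a higher and 9 with a lower mean, and 1, CARM1, reached an unadjusted p under 0.05, which is 7.69% beside 6.53% of all tested genes. CARM1, an arginine methyltransferase that coactivates nuclear receptors and is itself a PRMT family member, was 17.1, 22.5 and 18.1 FPKM in NC and 31.1, 24.8 and 23.5 FPKM in siMTFP1. Its groups did not overlap, and its log2 difference was 0.44 (limma adjusted p = 0.750). PRMT1 and CARM1 were thus the arginine methyltransferases with every siMTFP1 library above every NC library. SUV39H1, an H3K9 methyltransferase, had a log2 difference of 0.35 with overlapping groups. Its paralogue SUV39H2, far more abundant at 23.3 FPKM, and SMYD4 at 1.27 FPKM went the other way, with log2 differences of -0.305 and -0.277. In both every siMTFP1 library lay below every NC library, by a narrow margin in SUV39H2 (22.73 against 22.76 FPKM). Neither passed, and both were picked after their values were seen. CARM1, SUV39H2 and SMYD4 were the separate genes of this list, 23.1% of the 13 tested, beside 11% of all tested genes. Of 7 other demethylases 6 were tested, 3 higher and 3 lower, and PHF8 alone reached an unadjusted p under 0.05, at 1.43, 0.81 and 0.51 FPKM in NC and 1.41, 1.94 and 1.64 FPKM in siMTFP1. One such gene of 6 is too few to set beside the 6.53% of all tested genes. JMJD6 had a log2 difference of 0.41 and HSPBAP1, also picked after its value was seen, one of -0.39, both with overlapping groups. Among 14 other acetyltransferases and related proteins 11 were tested, 6 higher and 5 lower, led by the nuclear receptor coactivators NCOA3 and NCOA1 with log2 differences of 0.25 and 0.19. The lower ones included EP300 (-0.15) and CREBBP (-0.13), with overlapping groups and both picked after their values were seen.

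Among subunits of the complexes that carry the enzymes, 58.8% to 63.6% of the tested genes had a higher mean in siMTFP1, beside 54.2% of all tested genes. Their median log2 differences were 0.05, 0.01 and 0.006 in the methyltransferase, acetyltransferase and deacetylase complexes. The enzymes under the naming rule gave -0.03, 0.19 and 0.19 in that order, so the split by role was not repeated in the subunits. Methyltransferase complex subunits were higher in 11 and lower in 7 of 18 tested genes, led by the Polycomb accessory proteins PHF19 and AEBP2 with log2 differences of 0.33 and 0.19. Acetyltransferase complex subunits were higher in 14 and lower in 8 of 22, with ING5 at -0.43 and JADE1 at 0.31. Deacetylase complex subunits were higher in 10 and lower in 7 of 17. MBD2, the methyl-DNA binding protein of a NuRD complex, was 1.57, 1.61 and 1.32 FPKM in NC and 1.84, 2.62 and 2.28 FPKM in siMTFP1, and RCOR1, the CoREST scaffold, was 2.24, 1.89 and 1.97 FPKM in NC and 2.45, 2.62 and 2.76 FPKM in siMTFP1. Both were separate between groups, with log2 differences of 0.37 and 0.25. So was RCOR2, at a mean of 17.6 FPKM against 2.32 FPKM for RCOR1, with a log2 difference of 0.22, and it was picked after its value was seen. These 3 genes are 17.6% of the 17 tested, beside 11% of all tested genes. PHF19 and JADE1 were the only tested genes separate in the methyltransferase and acetyltransferase complex lists, 5.56% and 4.55% of them. In these 3 lists 0 genes reached an unadjusted p under 0.05, beside 6.53% of all tested genes.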

How the data were processed

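Messenger RNA libraries were made from TRIzol-extracted total RNA with a BGI kit, as the labels' protocols state. The files the authors deposited hold FPKM with 2 decimals for 17325 genes in each of 6 libraries. Per the submitters' processing notes, the tools included RSEM 1.3.1, Bowtie2 2.3.4.3, HISAT2 2.2.1 and DESeq2 1.4.5, on build ARS-UCD1.2, and no roles are stated. The sources used here do not state the use of strand or the handling of reads that match several paralogues. All 71 gene IDs matched the RefSeq table of ARS-UCD2.0, used for names only; no coordinates or sequences are printed.

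Groups came from the titles. Values were taken as log2(FPKM + 1), genes with a mean of at least 1 FPKM were kept, and limma 3.58.1 in R 4.3.3 (eBayes with trend, two-sided) was fitted with group as the only term and adjusted over all tested genes. Fold changes on this scale understate those of low genes. The test was first checked on simulated data. Members, roles and lists were chosen with earlier results of these data known. Detail is given for the 3 most abundant genes and the 2 smallest p per role, members at an unadjusted p under 0.05, 16 genes picked by function, and the 2 smallest p per further list; other members named were added to complete their family. Alternatives were other pseudocounts, filters, scalings, a replicate block, array weights, robust eBayes and leaving out each library. Python 3.11.15, pandas 2.3.3 and matplotlib 3.10.9 made tables and plots.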

Additional observations from a re-analysis of the deposited data

How the results depend on the processing

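No member passed the adjusted threshold in any of the 17 alternative limma settings. Shares of all tested genes in the same setting and direction are given in brackets. The number of members higher at an unadjusted p under 0.05, 1 of 47 as reported (3.86%), was 4 of 71 with no filter (3.66%). It was 4 with array weights (6.78%), 0 with FPKM rescaled to equal sums (3.73%) and 0 to 3 when single libraries were left out (2.04% to 5.3%). The number lower, also 1 (2.66%), was 0 with a minimum of 5 FPKM (2.85%), where PRMT7 was not tested. It was 0 with equal sums (2.13%), 0 with the replicate number as a block (2.68%) and 0 to 1 when single libraries were left out (1.41% to 3.34%). No pairing by replicate number was visible: correlations of deviations were 0.034, -0.163 and 0.067 for equal numbers, and not every library correlated best with its own number. With 3 libraries per group these values cannot show that the libraries were unpaired. The block changed no other count. Log2 differences near 0 changed sign in some settings, and the cause was not tested: with a pseudocount of 0.1, SIRT5 (-0.011); with quantile normalization, SIRT5 (-0.042), PRMT2 (-0.026), SIRT6 (-0.010), PRMT6 (-0.026), KMT2B (-0.014); with array weights, EED (0.025), KDM4A (-0.034), KAT2A (-0.044), KDM1A (-0.010), PRMT6 (-0.037). Leaving out single libraries gave log2 differences that span 0 for 23 genes: EED (-0.092 to 0.105), KDM1B (-0.146 to 0.059), SETD1B (-0.074 to 0.064), PRMT5 (-0.508 to 0.097), KDM7A (-0.202 to 0.042), SUZ12 (-0.198 to 0.068), KMT2E (-0.283 to 0.041), HDAC8 (-0.045 to 0.186), KMT5B (-0.121 to 0.020), KMT2C (-0.167 to 0.067), SIRT1 (-0.066 to 0.033), SETD1A (-0.186 to 0.029), HDAC1 (-0.076 to 0.150), SIRT5 (-0.135 to 0.201), KDM4A (-0.037 to 0.212), KAT2A (-0.051 to 0.229), KDM1A (-0.076 to 0.189), SIRT6 (-0.211 to 0.219), KMT2B (-0.044 to 0.090), PRMT2 (-0.022 to 0.131), PRMT6 (-0.010 to 0.096), SETD3 (-0.083 to 0.031) and KDM2A (-0.005 to 0.392). The mean log2 ratios of writers to erasers moved by less than 1 SD throughout. Depth is unknown, so it cannot be said which low values rest on few reads.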
